A study of Mus musculus with 10 samples.

Results

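The cohesin complex, the factors that load and release it, and the insulator protein CTCF make up the machinery that folds chromosomes into loops. Their RNA was examined here in the frontonasal prominence, from which the forehead and nose develop. The 10 genes were chosen by name: Smc1a, Smc3, Rad21, Stag1 and Stag2 for the ring and its STAG subunits, Nipbl for loading, Wapl, Pds5a and Pds5b for release and regulation, and Ctcf. All 10 were found among the 35542 genes of the count table and all 10 passed the filter on low counts. The tissue came from E10.5 embryos of the FVB/NJ strain. There were 4 libraries from embryos with MommeD1 on both copies of Smchd1 (MD1), of which 2 were labelled female and 2 male, and 6 wild-type libraries (WT), of which 3 were labelled female and 3 male. MommeD1 is a loss-of-function allele from a mutagenesis screen and is carried by every cell of the embryo. The labels do not say whether a library came from 1 embryo, so the p-values reflect variation among libraries, which may be technical.

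Cohesin is a ring of SMC1A, SMC3 and RAD21 to which either STAG1 or STAG2 binds. NIPBL loads the ring onto DNA and drives it to extrude a loop, PDS5 proteins and WAPL limit how long it stays, and CTCF bound to DNA halts it and so sets where loops end. SMCHD1 is a distant relative of the SMC subunits that acts on the inactive X chromosome and on several autosomal gene clusters, where it is known to oppose loops made with CTCF. The comparison below asks whether the RNA of the loop machinery differed when Smchd1 was lost.

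Libraries held 4195119 to 24125084 counts, and the 10 genes together took 0.264% to 0.306% of the counts in each. Levels are counts per 1000000 of the library size after TMM scaling (CPM) unless RPKM is named. Smchd1 itself averaged 78.6 ± 20.8 CPM in MD1 libraries and 246 ± 14.0 CPM in WT libraries (SD, n = 4 and 6), which is -1.64 as a log2 fold change (adjusted p = 0.000805, edgeR quasi-likelihood test). All 10 frontonasal markers were detected, summing to 941 to 1504 CPM in MD1 and 1276 to 1792 CPM in WT libraries. A pair of MD1 libraries stood apart. The library labelled MD1 female replicate 1 had 88.2 CPM of the Y-linked gene Ddx3y, against 78.2 to 91.4 CPM in WT males and 0 in WT females, and 204 CPM of Xist, the RNA that silences the inactive X, against 2594 to 2695 CPM in WT females. These levels go against its label. MD1 replicate 4, the other library labelled female, had no Ddx3y and 6724 CPM of Xist. In that library 8 genes of the hypoxia response summed to 6985 CPM, against 416 to 1355 CPM in WT libraries, and 7 erythroid genes to 20251 CPM, against 2984 to 4304 CPM in WT libraries. Its frontonasal markers were the lowest of all libraries at 941 CPM, its 5 endothelial genes summed to 539 CPM, against 272 to 350 CPM in WT, and its 5 forebrain genes to 472 CPM, against 215 to 374 CPM in WT. A further 5 genes of yolk sac endoderm and liver summed to 319 CPM in MD1 replicate 1 and 82.8 CPM in MD1 replicate 4, against 0.734 to 26.4 CPM in WT libraries. The hypoxia genes summed to 1481 CPM in MD1 replicate 1, also above the WT range. Another 8 genes, of cycling cells, summed to 3267 CPM in MD1 replicate 1 and 3173 CPM in MD1 replicate 4, against 3395 to 3573 CPM in WT libraries. Olfactory placode genes summed to 323 CPM in MD1 replicate 4, against 239 to 286 CPM in WT libraries. Values without these libraries are given below where they moved a result. In bulk tissue, fewer cells of a type and less RNA per cell cannot be told apart.

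The promoters of Ctcf, Smc3 and Smc1a are shown because Ctcf is the insulator of the set and because Smc3 and Smc1a encode the paired SMC arms of the ring, and all 3 lay outside the WT range in MD1 replicate 4. Sequences are from RefSeq on GRCm38.p6, run from 250 bases before to 50 bases after a gene's start, and were found for 7 of the 10 genes. Capitals mark CCCTC on either strand (CCCTC or GAGGG), the letters after which the CCCTC-binding factor CTCF was named.
Ctcf: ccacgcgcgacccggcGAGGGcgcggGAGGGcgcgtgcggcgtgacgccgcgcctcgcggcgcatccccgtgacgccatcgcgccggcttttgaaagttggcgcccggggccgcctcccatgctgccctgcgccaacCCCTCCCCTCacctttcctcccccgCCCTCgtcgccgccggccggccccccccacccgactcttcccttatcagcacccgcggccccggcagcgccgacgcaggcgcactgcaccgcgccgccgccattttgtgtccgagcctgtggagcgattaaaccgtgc
Smc3: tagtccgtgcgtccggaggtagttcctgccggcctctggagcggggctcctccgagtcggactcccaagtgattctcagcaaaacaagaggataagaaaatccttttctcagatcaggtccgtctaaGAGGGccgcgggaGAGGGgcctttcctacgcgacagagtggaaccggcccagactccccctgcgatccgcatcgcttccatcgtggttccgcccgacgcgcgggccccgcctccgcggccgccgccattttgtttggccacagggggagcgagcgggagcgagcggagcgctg
Smc1a: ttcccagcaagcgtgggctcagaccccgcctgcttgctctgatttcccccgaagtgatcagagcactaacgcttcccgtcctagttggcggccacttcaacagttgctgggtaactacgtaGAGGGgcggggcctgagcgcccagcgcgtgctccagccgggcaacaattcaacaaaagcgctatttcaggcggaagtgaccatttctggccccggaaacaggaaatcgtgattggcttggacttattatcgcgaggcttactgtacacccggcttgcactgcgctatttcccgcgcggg
The Ctcf promoter lies at chr8:105636288-105636587, that of Smc3 at chr19:53600146-53600445 and that of Smc1a at chrX:152016178-152016477, all on the forward strand. The Ctcf promoter held 5 matches, that of Smc3 held 2 and that of Smc1a held 1. Of the other promoters found, that of Stag1 held 2, those of Pds5a and Pds5b 1 each and that of Wapl 0. Matches did not overlap one another. At least 1 match was present in 65.95% of 32851 promoters of the same length, and 5 or more in 3.78%. These shares are over promoters of any base composition. Counted in CpG sites, where cytosine precedes guanine and DNA can be methylated, the promoters held 47 in Ctcf, 32 in Smc3 and 23 in Smc1a, against a median of 7 over all promoters. These matches describe the letters and are not binding sites measured in this tissue.

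Compared per length, the ring subunits and Ctcf were the most abundant of the set. Levels in RPKM, reads per kilobase of transcript and per 1000000 reads, were taken from the log2 RPKM values of the deposited table. Rad21, the kleisin that bridges the SMC heads, averaged 92.9 ± 13.04 RPKM in MD1 and 95.1 ± 5.86 RPKM in WT libraries (SD, n = 4 and 6). Smc1a followed with 58.2 ± 3.76 RPKM in MD1 and 52.4 ± 2.63 RPKM in WT, and Smc3 with 50.2 ± 1.08 RPKM in MD1 and 48.8 ± 1.68 RPKM in WT. Ctcf averaged 43.4 ± 7.87 RPKM in MD1 and 45.7 ± 1.83 RPKM in WT. The STAG subunits differed from each other, with Stag2 at 27.4 ± 2.52 RPKM in MD1 and 25.8 ± 2.00 RPKM in WT, and Stag1 lowest of all at 13.2 ± 1.61 RPKM in MD1 and 12.9 ± 0.733 RPKM in WT. Wapl, Nipbl and Pds5b lay between 22.4 and 26.0 RPKM on average in both genotypes, and Pds5a averaged 14.7 ± 3.20 RPKM in MD1 and 15.1 ± 0.835 RPKM in WT. The annotated exons of Pds5a cover 19335 bases, the most of the set, and its level per length depends on that model. The order of the 10 means was the same in MD1 and WT libraries.

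Some neighbours in that order were not separated. Rad21 exceeded Smc1a, Smc3 exceeded Ctcf, Ctcf exceeded Stag2 and Pds5b exceeded Pds5a in 10 of 10 libraries. Smc1a exceeded Smc3 in 9 of 10, and so did Wapl over Nipbl and Pds5a over Stag1. Nipbl exceeded Pds5b in 8 of 10 libraries. Stag2 exceeded Wapl in only 4 of 10, so these neighbours did not differ beyond the spread between libraries. Among 15982 genes that passed the filter, the WT mean of Rad21 was at the 98.5th percentile per length and that of Stag1 at the 73.2nd.

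**Figure D1:**
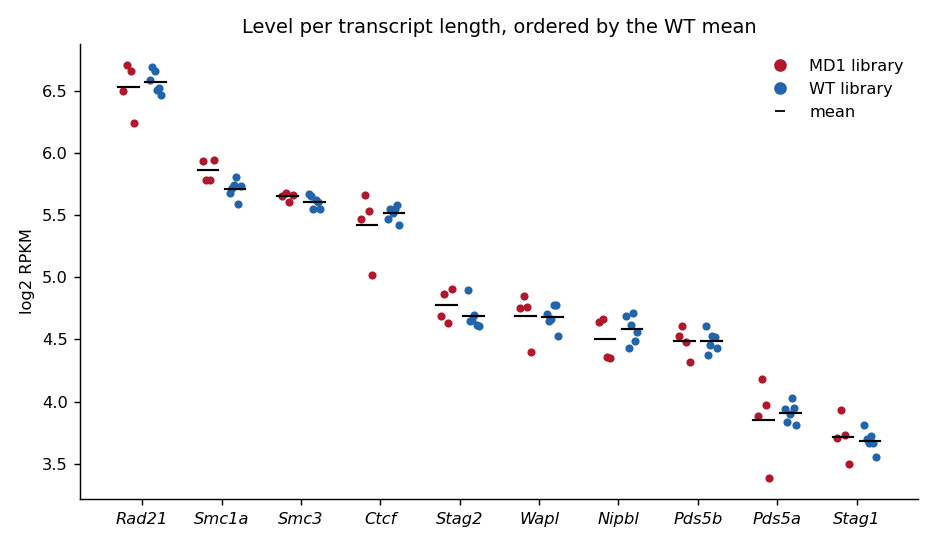
Level of each gene per transcript length, as log2 RPKM, in the 4 MD1 libraries (left of each pair) and the 6 WT libraries (right), with lines at the means and genes ordered by the WT mean. Rad21 was highest and Stag1 lowest in both genotypes, and MD1 replicate 4, whose median gene was 0.28 lower in this table than in TMM-scaled CPM, was the lowest MD1 point for all genes but Smc1a, Smc3 and Stag2.

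None of the 10 genes passed an adjusted p of 0.05 between MD1 and WT. On autosomes the count was 0 of 8, beside 0.0777% of the 15452 autosomal genes tested (12 genes), and for the X-linked Smc1a and Stag2 it was 0 of 2, beside 0.0688% of the 15982 genes on all chromosomes (11 genes), in edgeR's quasi-likelihood test. At an unadjusted p under 0.05 the counts were 0 of 8 and 1 of 2, beside 9.79% and 9.85% of the genes in each fit. DESeq2 and limma-voom also called none. The autosomal log2 fold changes ran from -0.01 for Ctcf to 0.13 for Smc3, with a median of 0.06 beside 0.01 over all autosomal genes, and 7 of the 8 were above 0, as were 51% of all autosomal genes. Over these 8 genes the 95% intervals reached no lower than -0.18 and no higher than 0.29 on the log2 scale. MD1 and WT libraries overlapped for all 10 genes. All 4 MD1 libraries lay outside the 6 WT ones, on 1 side, for 2.05% of autosomal genes and 2% of genes on all chromosomes.

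The X-linked SMC arm, Smc1a (ENSMUSG00000041133, chrX:152016428-152062694, forward strand), had the lowest unadjusted p of the set. It had 389.9, 354, 358 and 478 CPM in MD1 replicates 1 to 4, against 311, 335 and 359 CPM as the lowest, median and highest of the WT libraries. All 4 MD1 values exceeded the WT mean, but MD1 replicates 2 and 3, both labelled male, lay below the highest WT value. MD1 exceeded WT by a log2 fold change of 0.24 (SE 0.09, 95% interval 0.05 to 0.43, adjusted p = 0.492 by edgeR). Without MD1 replicate 4 it was 0.14, and without both libraries labelled MD1 female 0.09. Left out singly, MD1 replicate 1 gave 0.25, replicate 2 gave 0.29 and replicate 3 gave 0.29. The 525 X-linked genes tested had a median log2 fold change of 0.09, with 66.1% above 0, and the part of this shift in the Smc1a value was not tested.

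Its autosomal partner Smc3 (ENSMUSG00000024974, chr19:53600398-53645833, forward strand) encodes the other arm and carries the acetylated lysines that lock the ring on sister chromatids. It had 308, 317, 305 and 377 CPM in MD1 replicates 1 to 4, against 284, 303 and 317 CPM as the WT lowest, median and highest. Only MD1 replicate 4 stood above the WT range. The log2 fold change was 0.13 (SE 0.07, 95% interval -0.04 to 0.29, adjusted p = 0.550 by edgeR) and 0.05 without that library.

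Rad21 (ENSMUSG00000022314, chr15:51962240-51991747, reverse strand) closes the ring and is the subunit that separase cuts when chromosomes part. It had 421, 494, 485 and 430.3 CPM in MD1 replicates 1 to 4, against 413, 446 and 478 CPM as the WT lowest, median and highest. MD1 replicates 2 and 3 were above the WT range and replicates 1 and 4 inside it. On the log2 scale the fold change was 0.04 (SE 0.07, 95% interval -0.12 to 0.20, adjusted p = 0.845 by edgeR). It was 0.003 without MD1 replicate 2, 0.02 without replicate 3, 0.08 without replicate 1, 0.07 without replicate 4 and 0.14 without both libraries labelled MD1 female.

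The paralogous STAG subunits are alternatives in the ring. Stag2, on the X (ENSMUSG00000025862, chrX:42149317-42277185, forward strand), had 236, 269, 232 and 333 CPM in MD1 replicates 1 to 4, against 223, 227 and 277 CPM as the WT lowest, median and highest. Its highest WT library was WT male replicate 1, and MD1 replicate 4 was the only library above that. Its log2 fold change was 0.18 (SE 0.11, 95% interval -0.05 to 0.41, adjusted p = 0.550 by edgeR), and 0.06 without MD1 replicate 4. Left out singly, MD1 replicate 1 gave 0.23, replicate 2 gave 0.17 and replicate 3 gave 0.24. Stag1 (ENSMUSG00000037286, chr9:100597798-100959375, forward strand) had 169, 201, 177 and 179 CPM in MD1 replicates 1 to 4, against 153, 168 and 186 CPM as the WT lowest, median and highest. Here MD1 replicate 2 was highest, and the log2 fold change was 0.11 (SE 0.07, 95% interval -0.05 to 0.27, adjusted p = 0.578 by edgeR). Without MD1 replicate 2 it was 0.06, and without both libraries labelled MD1 female 0.18.

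The loader Nipbl (ENSMUSG00000022141, chr15:8290617-8444463, reverse strand), whose human counterpart is mutated in Cornelia de Lange syndrome, a disorder that affects the face, differed little on average. It had 259, 267, 219 and 259 CPM in MD1 replicates 1 to 4, against 222, 249 and 275 CPM as the WT lowest, median and highest. MD1 replicate 3, the shallowest library, was the lowest of all 10 and the other 3 lay inside the WT range. MD1 differed from WT by a log2 fold change of 0.004 (SE 0.08, 95% interval -0.18 to 0.18, adjusted p = 0.988 by edgeR).

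Of the release factors, Wapl (ENSMUSG00000041408, chr14:34673928-34747983, forward strand), which opens the ring, had 197, 213, 203 and 188 CPM in MD1 replicates 1 to 4, against 169, 189 and 203 CPM as the WT lowest, median and highest. The log2 fold change was 0.09 (SE 0.07, 95% interval -0.07 to 0.25, adjusted p = 0.648 by edgeR), and only MD1 replicate 2 was above the WT range. The value was 0.15 when both libraries labelled MD1 female were left out. Pds5a (ENSMUSG00000029202, chr5:65605721-65698273, reverse strand), a scaffold for both WAPL and the acetyltransferases that protect cohesin, had 314, 391, 343 and 271 CPM in MD1 replicates 1 to 4, against 301, 324 and 351 CPM as the WT lowest, median and highest. It had the highest library of all 10 in MD1 replicate 2 and the lowest in MD1 replicate 4. These opposite values gave a log2 fold change of 0.03 (SE 0.10, 95% interval -0.17 to 0.24, adjusted p = 0.911 by edgeR). It was -0.06 without MD1 replicate 2, 0.12 without replicate 4 and 0.19 without both libraries labelled MD1 female. Its paralogue Pds5b (ENSMUSG00000034021, chr5:150673739-150810690, forward strand) had 251, 268, 248 and 264 CPM in MD1 replicates 1 to 4, against 224, 244 and 270.4 CPM as the WT lowest, median and highest. All 4 MD1 values lay inside the WT range, at a log2 fold change of 0.08 (SE 0.07, 95% interval -0.07 to 0.23, adjusted p = 0.668 by edgeR).

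Ctcf (ENSMUSG00000005698, chr8:105636568-105682922, forward strand), the zinc finger protein that anchors loops, had 238, 275, 255 and 211 CPM in MD1 replicates 1 to 4, against 230.4, 246 and 261 CPM as the WT lowest, median and highest. MD1 replicate 2 was the highest and MD1 replicate 4 the lowest of the 10 libraries. The log2 fold change was -0.01 (SE 0.08, 95% interval -0.18 to 0.16, adjusted p = 0.979 by edgeR), and 0.06 without MD1 replicate 4. The counting was not stated to use strand. Ctcf shares exon bases with Agrp and Gm5914 on the opposite strand, whose totals over all libraries were 57 and 104 counts beside 35752 for Ctcf. Pds5a shares 255 exon bases with Gm42727 and 119 with Gm42729, which totalled 3519 and 1161 counts beside 47044, so reads in those stretches cannot be told apart.

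**Figure D2:**
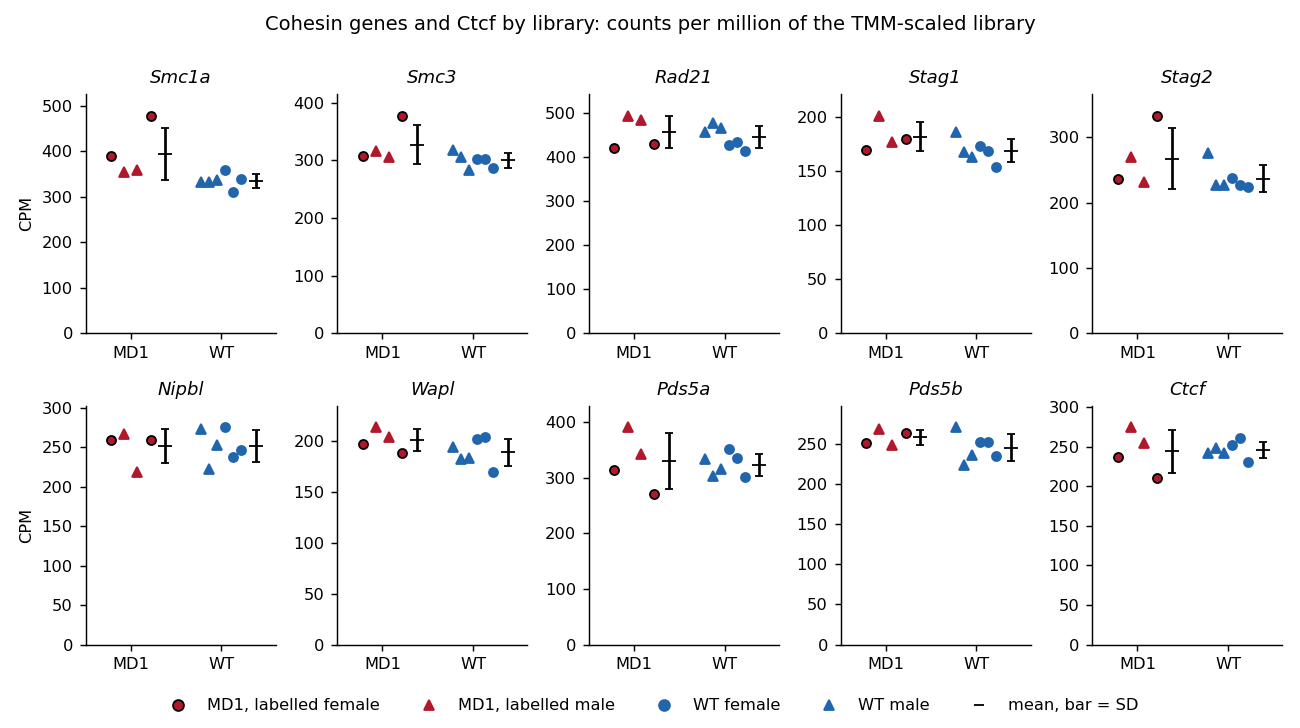
CPM of each gene in the 4 MD1 libraries (left) and the 6 WT libraries (right) of each panel, on axes from 0, with circles for libraries labelled female, triangles for those labelled male and bars for mean ± SD. The groups overlap in every panel, and the highest point for Smc1a (478 CPM), Smc3 (377 CPM) and Stag2 (333 CPM) is MD1 replicate 4.

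**Figure D3:**
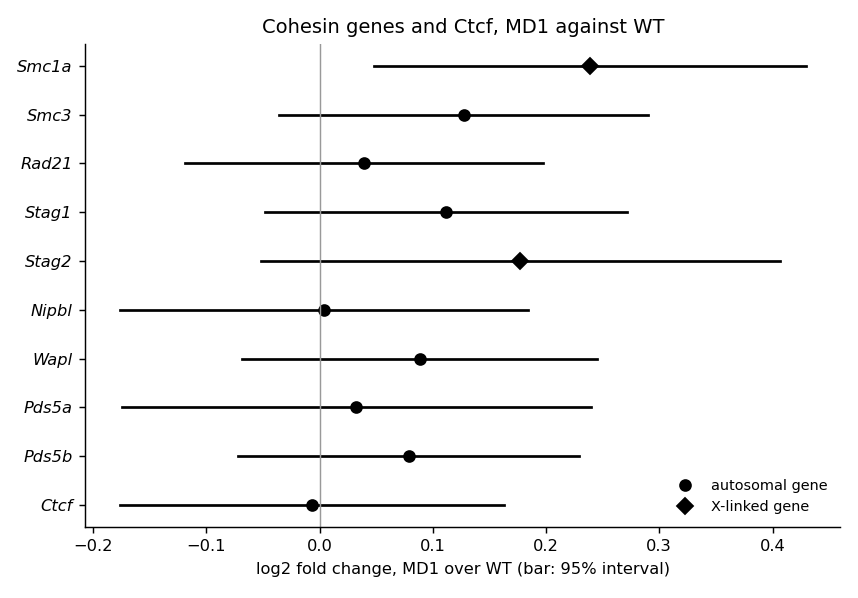
Log2 fold change of MD1 over WT with its 95% interval for the 8 autosomal genes (circles) and the X-linked Smc1a and Stag2 (diamonds). Smc1a is the only gene whose interval, 0.05 to 0.43, leaves out 0, and its adjusted p was 0.492 in edgeR's test.

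The spread between libraries was wider in MD1 for 8 of the 10 genes and narrower for Wapl and Pds5b. The coefficient of variation over WT libraries ran from 4.18% for Smc3 to 8.53% for Stag2, beside a median of 6.38% over 1073 genes of like level. Over MD1 libraries it ran from 3.75% for Pds5b to 17.4% for Stag2, beside a median of 13.1% over the same 1073 genes. Nipbl (8.61% in MD1, 8.20% in WT) and Stag1 (7.36% in MD1, 6.37% in WT) were close in both genotypes. Counted by library, 1 of the 10 genes lay outside the WT range in MD1 replicate 1, 5 in replicate 2, 2 in replicate 3 and 5 in replicate 4. Over all 15982 genes tested those shares were 28.3% in replicate 1, 41.6% in replicate 2, 50.5% in replicate 3 and 71% in replicate 4.

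MD1 replicates 2 and 4 departed in different ways. In replicate 2, labelled male, all 5 departures were upward (Ctcf, Rad21, Stag1, Wapl and Pds5a). The 8 autosomal genes averaged 0.17 above the WT mean there on the log2 scale. Of all genes tested, 41.6% lay outside the WT range in replicate 2 and 71% in replicate 4, so departures were common in both. The share of all genes above that range, and their mean difference, were not set beside these values. In replicate 4 the departures of the set went both ways. Smc1a was 0.51, Stag2 0.49 and Smc3 0.33 above the WT mean on the log2 scale, while Ctcf was 0.22 and Pds5a 0.25 below it, so that the 8 autosomal genes averaged 0.01. The part of the hypoxia, erythroid and cycling genes of that library in these values was not tested.

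**Figure D4:**
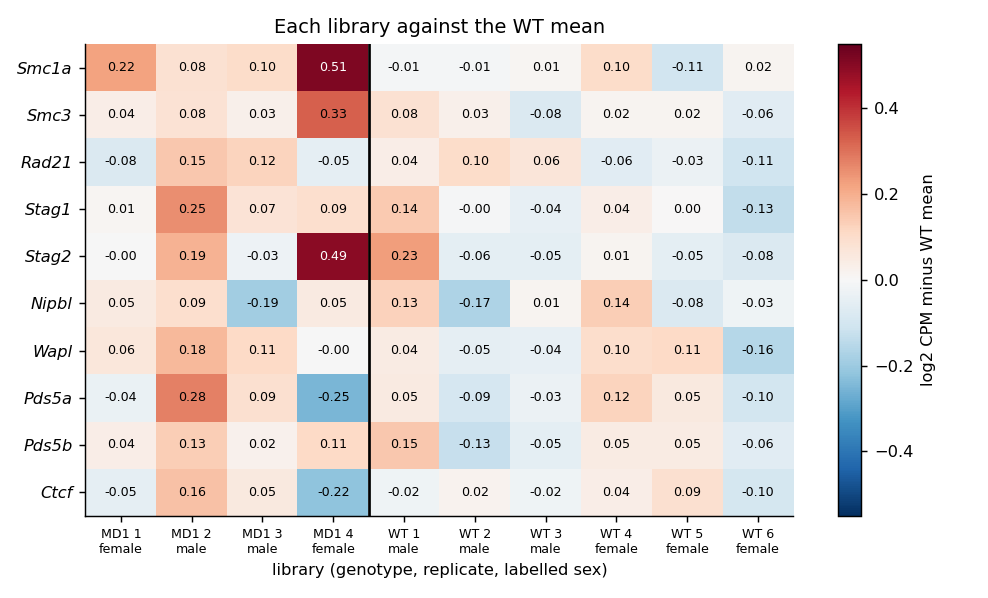
Log2 CPM of each gene in each library less the WT mean, with MD1 libraries left of the line and WT libraries right of it. MD1 replicate 4 holds both the highest values (Smc1a 0.51, Stag2 0.49) and the lowest (Pds5a -0.25), whereas MD1 replicate 2 is above 0 for all 10 genes.

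Ratios between 2 genes of a library cancel its scaling, and 5 were examined. None passed an adjusted p of 0.05 between MD1 and WT in a 2-sided exact permutation test over all 210 divisions of the libraries. The SMC arms, Smc1a over Smc3, had a mean log2 ratio of 0.27 ± 0.09 in MD1 and 0.16 ± 0.10 in WT libraries (SD, n = 4 and 6; exact p = 0.0952, adjusted over the 5 ratios 0.476). The STAG paralogues, Stag2 over Stag1, had log2 ratios of 0.48, 0.43, 0.39 and 0.89 in MD1 replicates 1 to 4, with a WT mean of 0.49 ± 0.06 (SD, n = 6; difference 0.06, adjusted exact p = 0.743). MD1 replicate 4 was high and the other 3 were at or below the WT mean, and without it the difference was -0.06. The PDS5 paralogues, Pds5a over Pds5b, had log2 ratios of 0.33, 0.54, 0.47 and 0.04 in MD1 replicates 1 to 4, with a WT mean of 0.40 ± 0.06 (SD, n = 6; difference -0.06, adjusted exact p = 0.743). MD1 replicate 4 lay below the WT range of 0.30 to 0.48 and MD1 replicate 2 above it. Without replicate 4 the difference was 0.04, and without replicate 2 it was -0.12. Loading against release, Nipbl over Wapl, had a mean log2 ratio of 0.32 ± 0.15 in MD1 and 0.41 ± 0.13 in WT (SD, n = 4 and 6; difference -0.09, adjusted exact p = 0.743). MD1 replicate 3 was lowest at 0.11, and the difference was -0.02 without it, -0.13 without MD1 replicate 4 and -0.20 without both libraries labelled MD1 female. Ctcf over Rad21 averaged -0.91 ± 0.09 in MD1 and -0.86 ± 0.09 in WT (SD, n = 4 and 6; difference -0.05, adjusted exact p = 0.743). Only MD1 replicate 4, at -1.03, lay below the WT range, and without it the difference was -0.01.

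**Figure D5:**
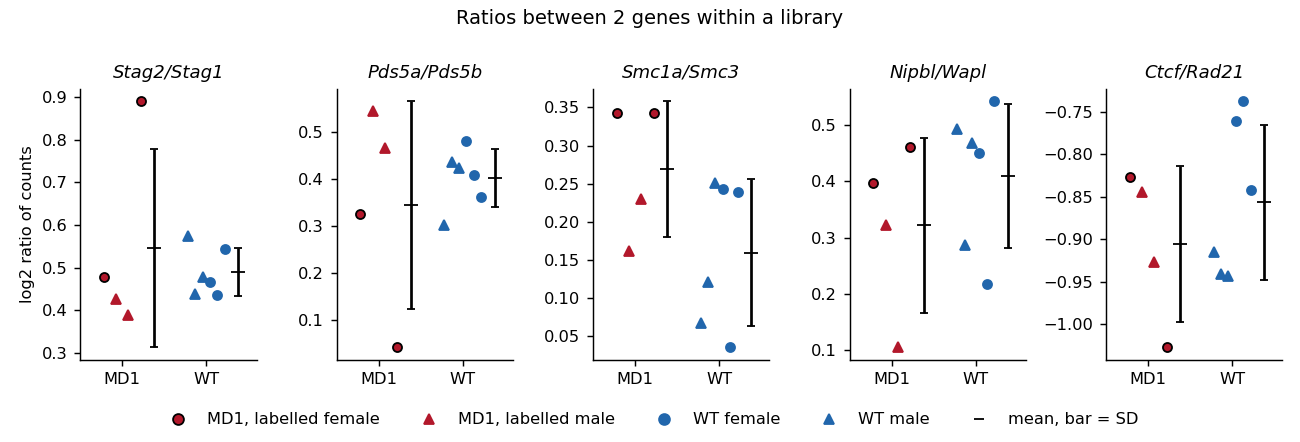
Log2 ratio of counts between 2 genes in each MD1 library (left) and each WT library (right), with circles for libraries labelled female, triangles for those labelled male and bars for mean ± SD. MD1 replicate 4 is the highest point for Stag2 over Stag1 (0.89) and the lowest for Pds5a over Pds5b (0.04).

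No difference between the sexes was called for these 10 genes in WT embryos. None of the 10 genes passed the threshold in WT females against WT males, beside 0% of 15982 genes in the 4-group edgeR model and 0.0602% of 14955 genes in a fit of the WT libraries alone, and none had an unadjusted p under 0.05 in the 4-group model, beside 1.31% of all genes. Xist itself, at a log2 fold change of 11.02, had an adjusted p of 0.0525 in that model and did not pass the filter of the fit of WT libraries alone, so these counts of 0 say little. Without MD1 replicate 1 in the 4-group model, 0.136% of 16127 genes passed (22 genes, Xist among them, with adjusted p = 2.41e-10), and none of the 10, in edgeR's test. Smc1a averaged 336 ± 24.1 CPM in WT females and 334 ± 3.07 CPM in WT males (SD, n = 3 each), a log2 fold change of 0.01 (95% interval -0.20 to 0.22). Stag2 averaged 229.7 ± 7.82 CPM in WT females and 244 ± 28.5 CPM in WT males (SD, n = 3 each), a log2 fold change of -0.08 (95% interval -0.38 to 0.21). Both X-linked genes thus had intervals on either side of 0. Rad21 was the 1 gene of the 10 whose WT female and WT male libraries did not overlap, beside 8.25% of all genes, and gave the lowest unadjusted p, 0.0912 (adjusted p = 1.00), with 425 ± 11.3 CPM in WT females and 467 ± 10.7 CPM in WT males (SD, n = 3 each) in edgeR's fit. In the fit of the WT libraries alone, the unadjusted p of Rad21 was 0.0571 (adjusted p = 0.999) by edgeR. The ratio of Ctcf to Rad21 had a mean log2 value of -0.78 ± 0.06 in WT females and -0.93 ± 0.02 in WT males (SD, n = 3 each), groups that did not overlap and in which an exact test could not go below p = 0.10. This ratio contains Rad21, so it is not a result apart from the Rad21 values above. The other ratios examined overlapped between WT females and WT males.

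Within each labelled sex, none of the 10 genes passed the threshold in MD1 males against WT males, in MD1 females against WT females, or in the difference of these effects, beside 0.0188% of genes in males, 0.00626% in females and 0% in the difference. At an unadjusted p under 0.05 the counts were 0 of 10 in males, 1 of 10 in females (Smc1a) and 1 of 10 in the difference (Pds5a), beside 3.8%, 19.1% and 10.4% of all genes. In males the log2 fold change was 0.09 for Smc1a (95% interval -0.14 to 0.33) and 0.04 for Stag2 (95% interval -0.29 to 0.37). The MD1 libraries labelled female include MD1 replicate 1, which had Ddx3y at the level of WT males. Contrasts of labelled sex may thus not be those of females and males alone. In libraries labelled female the log2 fold change was 0.37 for Smc1a (95% interval 0.14 to 0.60, adjusted p = 0.160 by edgeR) and 0.31 for Stag2 (95% interval -0.02 to 0.63, adjusted p = 0.286 by edgeR). The female and male effects on Smc1a differed by 0.28 (95% interval -0.06 to 0.61, adjusted p = 0.496 by edgeR).

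These female values rest on the pair of libraries that stood apart. When the library labelled MD1 female replicate 1 was left out, the female side held MD1 replicate 4 alone, which was then assumed to vary like the other groups, and 3 of 10 genes passed in females: Smc1a at 0.51 (adjusted p = 0.00240), Stag2 at 0.53 (adjusted p = 0.00771) and Smc3 at 0.34 (adjusted p = 0.0199) in edgeR's test. In that fit 33.8% of all 16127 genes passed, and 37.4% of 532 X-linked genes. The difference between the sexes passed for Smc1a (0.41, adjusted p = 0.0395) and for Pds5a (-0.50, adjusted p = 0.0353), beside 22.6% of all genes. The median log2 fold change of the X-linked genes in females was 0.17 there, and X-linked genes took 4.35% of counts in MD1 replicate 4, against 3.39% to 3.49% in WT females. With Xist left out these shares were 3.73% in MD1 replicate 4, against 3.12% to 3.22% in WT females. They were then 3.32% and 3.19% in MD1 replicates 2 and 3, labelled male, against 3.10% to 3.17% in WT males. The median log2 fold change of the X-linked genes in males was 0.05 in the same fit. Without MD1 replicate 4 instead, the MD1 side labelled female held MD1 replicate 1 alone, which had Ddx3y at the level of WT males. The log2 fold change on that side was then 0.22 for Smc1a and 0.04 for Stag2.

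The other genes of these complexes were described from lists chosen by name, and none of the 36 tested passed the threshold, beside 0.0688% of all genes. An unadjusted p under 0.05 was reached by 4 of the 36, beside 9.85% of all genes, and 18 were higher and 18 lower in MD1, beside 51% of all genes above 0. Of 16 further cohesin subunits and regulators, 13 were tested, 6 higher and 7 lower in MD1, with a median log2 fold change of -0.002 beside 0.01 over all genes. Those with the lowest unadjusted p were Stag3, a STAG subunit of germ cells (0.82, adjusted p = 0.493), and Espl1, the separase that cuts RAD21 (-0.23, adjusted p = 0.493). The meiotic subunits Smc1b, Rad21l and Rec8 had 9, 4 and 17 counts in all libraries together and were not tested. For Mau2, the partner of NIPBL, the value was -0.08 (adjusted p = 0.692). Adjusted p-values in this paragraph are from edgeR.

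Among the related ring complexes, 5 of 8 condensin genes, whose products compact mitotic chromosomes, were higher and 3 lower, with a median of 0.06. The lowest unadjusted p there belonged to the condensin I subunit Ncapg (0.21, adjusted p = 0.493 by edgeR), followed by Smc4, an SMC arm of both condensins (0.15, adjusted p = 0.513 by edgeR). Of 8 genes of the SMC5/6 complex, which acts in DNA repair, 6 were higher and 2 lower, with a median of 0.07. Its core subunit Smc5 had the lowest unadjusted p of the 4 lists, 0.00999, at 199 CPM in MD1 and 169 CPM in WT libraries on average (log2 fold change 0.24, adjusted p = 0.493 by edgeR). Next in that list was Nsmce1 (-0.12, adjusted p = 0.588 by edgeR). Of 7 further insulator and looping factors tested, 1 was higher, Zfp143, which binds promoters at loop anchors (0.25, adjusted p = 0.514 by edgeR), and 6 were lower, with a median of -0.04. The zinc finger gene Adnp followed it in that list (-0.09, adjusted p = 0.698 by edgeR). Ctcfl, the germline paralogue of Ctcf, had 0 counts in every library.

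The autosomal genes whose log2 CPM followed the standardised mean of the 8 autosomal genes most closely over the 10 libraries, among 15444 searched, were Scyl2 (Pearson r = 0.97), Rab18 (0.97), Zfp91 (0.96), Srsf7 (0.95), Rabep1 (0.94) and the condensin gene Smc2 (0.93). Within the 6 WT libraries alone r was between 0.93 and 0.98 for these genes. They were picked as the highest values, and all points share library scaling.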

How the data were processed

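RNA was profiled in 10 frontonasal prominence libraries with single-end reads and a kit that does not mark strand. Per the labels and the study's methods, the authors trimmed reads with Trim Galore 0.4.4, aligned them with HISAT2 2.0.5 to GRCm38.p6 and deposited raw read counts per gene from SeqMonk. They also deposited log2 RPKM values, normalized for library size and transcript length. Whether counting used strand is not stated there. Of 35591 rows, 49 repeated an identifier and were dropped (the row with more reads was kept), and 27 symbols turned into dates were restored. Genotype averages were not used. Counts were tested with edgeR 4.0.16 (quasi-likelihood, filterByExpr, TMM, Benjamini-Hochberg, threshold 0.05) in R 4.3.3. Autosomal genes were fitted as the study did, without sex chromosomes, and the X-linked Smc1a and Stag2 in a fit of all chromosomes. The sexes were compared in a model with a mean for each genotype and labelled sex. Standard errors are the log2 fold change over the square root of F, and 95% intervals use the fit's degrees of freedom. Levels are CPM of the TMM-scaled library, log2 CPM uses a prior count of 2, and ratios between genes use a pseudocount of 0.5. Alternatives were other scaling and filters, DESeq2 1.42.0, limma 3.58.1, labelled sex as a covariate, the replicate number as a block and libraries left out. The test was tried on simulated data. Coordinates of all 10 genes match GENCODE M21. Named are the 10 genes, Smchd1, the 2 genes of lowest p in each related list, those needed to describe a count, and the 6 most alike in pattern. The genes and lists were chosen with earlier results of these data known. Mau2, Smc1b, Rad21l, Rec8, Ctcfl, Ddx3y and Xist were also named to describe the lists and the labels.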

Additional observations from a re-analysis of the deposited data

Results flagged for a closer look

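Of 30 groups of libraries examined for a value far from the rest, 3 held one, where chance gives about 1 in 20. MD1 replicate 4 had 376.7 CPM of Smc3, and the nearest MD1 library had 316.5 CPM. MD1 replicate 3, the library with the lowest depth, had 218.9 CPM of Nipbl, and the nearest MD1 library had 258.8 CPM. WT male replicate 1 had 276.6 CPM of Stag2, and the nearest WT library had 238.4 CPM.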

How the results depend on the processing

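None of the 10 genes passed the threshold between MD1 and WT under any alternative of that comparison, and the adjusted p was never under 0.257. Several log2 fold changes near 0 changed sign. In limma on the deposited log2 RPKM, Rad21 was -0.043, Nipbl -0.0789, Pds5a -0.0582 and Pds5b -0.00119, and in that table the median gene of MD1 replicate 4 was 0.28 lower on the log2 scale than in TMM-scaled CPM. With a replicate block, Nipbl was -0.024 and no gene passed. Same-numbered libraries deviated from their group means with correlations of 0.002, -0.07, 0.05 and -0.12. No values for differently numbered libraries were set beside these, so they cannot settle whether the numbers pair the libraries. The labels do not tie them to a litter. Without both libraries labelled MD1 female, Ctcf was 0.115, Nipbl -0.036, Stag2 over Stag1 -0.0816 and Pds5a over Pds5b 0.104. Leaving out each library in turn, Ctcf ran from -0.0651 to 0.0598, Nipbl from -0.025 to 0.0676, Pds5a from -0.0573 to 0.118, Stag2 over Stag1 from -0.0583 to 0.109 and Pds5a over Pds5b from -0.124 to 0.044. In the models of labelled sex the same step gave -0.0708 to 0.15 for Stag2 in males, -0.00989 to 0.482 for the Stag2 difference of females and males, -0.0415 to 0.0627 for Smc1a in WT females against WT males and -0.132 to 0.0156 for Stag2 in WT females against WT males. Of the 30 tests within or between labelled sexes, 0 to 5 passed, and the 5 came only without MD1 replicate 1. Leaving out single libraries moved Smc1a in libraries labelled female between 0.22 and 0.51, and Stag2 there between 0.04 and 0.53. The Smc1a difference of labelled females and males moved between 0.12 and 0.41. Each of these lowest values came without MD1 replicate 4, which left MD1 replicate 1 alone on the MD1 side labelled female. Each highest value came without MD1 replicate 1, which left MD1 replicate 4 alone there. The cause was not tested.

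With 4 MD1 libraries that spread more widely than the WT libraries, the standard errors of 0.07 to 0.11 on the log2 scale limit which changes could be detected, and protein or binding to chromatin was not measured.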
